A study of Mus musculus with 6 samples.

Results

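Epiblast-like cells (EpiLCs) at day 2 were compared with EpiLCs at day 4 that had been carried on without PRDM14, to describe what further culture alone changes in these cells. The comparison is 1 array of EpiLCs (d4) minus 1 array of EpiLCs (d2), out of 6 arrays in the series, over all 28898 probe sets of the chip that carry 1 gene symbol and stand for 17097 genes. Both cultures come from E14tg2a, a mouse embryonic stem cell (ESC) line, carry a doxycycline-inducible FLAG-*Prdm14*-IRES-Neo cassette placed by the piggyBac transposon in a picked colony, and carry a scramble shRNA. Neither received doxycycline, so *Prdm14* was not switched on by design, and its probe set read 5.04 at day 2 and 5.18 at day 4. Between the arrays the cells were also collected, replated on fibronectin and moved from N2B27 medium with activin A and bFGF into GK15, a Glasgow medium with 15% serum replacement, so the days and the change of medium cannot be told apart. The other arrays of the series are undifferentiated ESCs, EpiLCs + PRDM14, which passed through the same further days with doxycycline, and a day 2 and a PRDM14 culture labelled *Tet1*/*Tet2* KD, in which shRNAs against both TET enzymes replace the scramble.

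EpiLCs model the post-implantation epiblast, the sheet of cells from which the germ layers and the germ line arise. They have lost the transcription factor network of naive ESCs, keep the shared factors OCT4 and SOX2, and have gained epiblast genes such as *Fgf5*, *Otx2* and *Pou3f1*. The epiblast is an epithelium and lies next to trophoblast and extraembryonic endoderm in the embryo. It can still take several fates, among them surface ectoderm, neural ectoderm and mesoderm, and it silences much of the germ line gene set by DNA methylation and repressive chromatin.

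All values are log2 signals, so a difference of 1 is a doubling of the signal. Where a gene has several probe sets, its values are those of the brightest, judged by the mean signal of the 6 arrays. With 1 array for each condition there is no replicate error and no p-value, and how many arrays there are limits the precision. A gene is therefore called higher or lower at 1.5-fold, which describes these arrays and no other cultures. In bulk RNA, fewer cells of a type and less RNA per cell cannot be told apart. A probe set's level was not set against the level of another probe set.

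At day 4, 371 of 17097 genes were past 1.5-fold higher than at day 2 and 194 were lower. These are 2.17% and 1.13% of the genes. On the level of probe sets, 563 were higher (1.95%) and 264 lower (0.914%). Past 2-fold, 122 genes were higher and 40 lower, and past 4-fold, 11 were higher and 2 lower. Most genes moved little, since 85.2% lay within 1.2-fold, the median difference was -0.01 and the 5th and 95th percentiles were -0.30 and 0.36. None of the 104 control probe sets of the array was past 1.5-fold, and 103 of them differed by less than 0.3. The remaining one differed by 0.583, just short of 1.5-fold. Of 255 called genes with several probe sets, 176 had every probe set on the same side of 0, and 45 had all of them past the threshold. For 1 gene another probe set was past it in the opposite direction. Where other probe sets of a gene are not given below, they may lie within 1.5-fold. The plot of differences by level shows the higher genes reaching further from 0 than the lower ones.

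**Figure D1:**
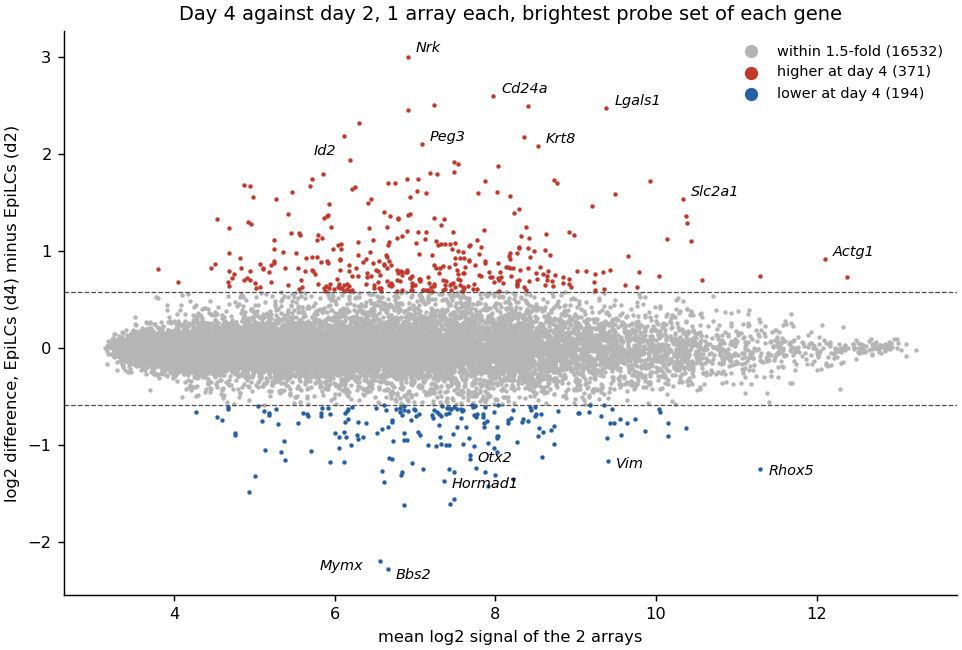
Each point is a gene at its mean log2 signal over EpiLCs (d2) and EpiLCs (d4), x axis, and its log2 difference, day 4 minus day 2, y axis. Dashed lines mark 1.5-fold, past which 371 genes lie above (red) and 194 below (blue), from *Nrk* at 3.01 to *Bbs2* at -2.28.

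The genes with the largest increases encode surface, cytoskeletal and placental proteins as well as chromatin factors. *Nrk*, an X-linked kinase of the placenta, had the largest difference. It read 5.41 at day 2 and 8.42 at day 4, with 5.14 in ESCs and 7.25 in EpiLCs + PRDM14. *Cd24a*, a lipid-anchored surface antigen of epithelial and progenitor cells, went from 6.67 to 9.27. *Plac8*, a small cysteine-rich protein gene first found in placenta, went from 7.16 to 9.66, and *Lgals1*, the secreted lectin galectin-1, from 8.14 to 10.62. EpiLCs + PRDM14 read 9.99 for *Plac8* and 10.31 for *Lgals1*, so both arrays of the later stage lay above day 2. *App*, the amyloid precursor gene, went from 5.02 to 7.21 while it read 5.60 in EpiLCs + PRDM14. Also among the 20 largest increases were *BC080696* (2.51), *3830417A13Rik* (2.46), *Slc25a24*, a mitochondrial ATP carrier (2.33), *Hmgn5*, a nucleosome-binding protein (2.18), *Sh3bgrl* (1.93), *Phf20l1*, a reader of methylated lysine (1.90), *Pls3*, an actin-bundling plastin (1.88), *Gm5039* (1.82), *Fgfbp1*, a carrier of secreted FGFs (1.80), *Smarca1*, an ISWI remodelling ATPase (1.80), and *Fam171b* (1.75). *Peg3*, *Krt8*, *Id2* and *Cald1* complete the 20 and are described with their groups. *Phf20l1* has another probe set at -0.05 and *Slc25a24* another at 0.37, so for these genes the probe sets do not all cross the threshold.

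The largest decreases fell on a different set of genes, with several of the germ line and of X-linked multicopy families. *Bbs2*, a subunit of the BBSome that carries membrane proteins into cilia, read 7.80 at day 2 and 5.53 at day 4, with 7.48 in ESCs and 6.19 in EpiLCs + PRDM14. *Mymx*, which encodes a micropeptide of myoblast fusion, went from 7.66 to 5.47 while it read 9.49 in ESCs and 8.14 in EpiLCs + PRDM14. *Epas1*, the oxygen-regulated factor HIF2A, went from 7.67 to 6.06, though a second probe set differed by 0.10. Of the X-linked genes, *Xlr5c* differed by -1.56, *Pramel3* by -1.49, *Xlr4b* by -1.35, *1700013H16Rik* by -1.31 and *Rhox5* by -1.24. *Xlr*, *Pramel* and *Rhox* genes have close copies, and the array may not separate the copies from each other. The remaining large decreases include *Manba*, the lysosomal beta-mannosidase (-1.42), *Nefl*, the light neurofilament subunit (-1.38), *Trpt1*, a tRNA phosphotransferase (-1.32), *Nqo1*, a quinone reductase (-1.30), *Parp12*, an interferon-inducible ADP-ribosyltransferase (-1.28), *Gpat2*, an acyltransferase of the germ line (-1.26), *Lrrc2* (-1.25) and the Y-linked *Uba1y* (-1.25). Another probe set of *Nefl* differed by -0.11 and another of *Uba1y* by -0.35. *Rec114*, *Hormad1*, *Mael* and *Dazl* complete the 20 and are described with the germ cell genes.

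The labels of both arrays as EpiLCs were set against defining markers. *Pou5f1*, which encodes OCT4, read 10.88 at day 2 and 10.77 at day 4, and *Sox2* read 10.91 and 10.76. Of 6 epiblast markers, *Dnmt3b* went from 11.47 to 11.70, *Pou3f1* from 9.01 to 9.38, *Fgf5* from 6.30 to 5.99, *Foxd3* from 7.59 to 7.04 and *Otx2* from 8.23 to 7.13, and *Sox3* read 4.73 and 4.75, against 4.83 in ESCs. *Otx2* is the marker past 1.5-fold, and its level at day 4 remained above the 6.53 of ESCs. Of 6 naive markers none was past 1.5-fold, and their differences ranged from -0.46 to 0.52 with a median of 0.13. Among them, *Klf4* read 5.25 at both days, against 9.21 in ESCs. The pluripotency factor *Nanog* read 7.91 at day 2 and 8.43 at day 4, against 10.32 in ESCs, and stayed within 1.5-fold. No marker of the mesoderm, endoderm, neural, fibroblast or blood and endothelial panels was past 1.5-fold. Dim markers were unlikely to be, since 0.619% of all genes with a mean signal from 4 to 5 were higher and 0.225% lower. The mesoderm factor *Eomes* differed by -0.09, the endoderm factor *Sox17* by -0.02 and the neural factor *Sox1* by -0.01. In the trophoblast panel, *Plac1* was higher by 0.93, while the lineage factors *Cdx2*, *Elf5* and *Gata3* differed by 0.01, 0.00 and -0.05. Of 5 core markers, *Lin28a* was the 1 past 1.5-fold, higher by 0.66. Both arrays thus held *Pou5f1*, *Sox2* and most epiblast markers at near levels, and *Otx2* was the epiblast marker that differed most.

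In a wider set of 41 lists with 1168 measured genes, 117 of these genes were called, beside 565 of all 17097 genes. The lists were chosen with earlier results of these data known, and as a whole they held called genes more often than all genes did. A list share above that of all genes is therefore not by itself particular to that list. Of 32 genes of the primed epiblast, 5 were higher (15.6%) and 3 lower (9.38%), beside 2.17% and 1.13% of all genes. The median difference of the list was -0.03 beside -0.01 over all genes. The higher ones were *Zic2*, a zinc finger factor (0.90), *Nr6a1*, an orphan nuclear receptor that represses *Pou5f1* (0.84), the kinase gene *Pim2* (0.77), *Enpp3* (0.73) and *Sfrp2*, a WNT inhibitor (0.70). *Nr6a1* has 5 probe sets that range from -0.12 to 0.91, and the 4 of *Enpp3* range from -0.17 to 1.18. Besides *Otx2*, *Tcf15* (-0.67) and the ERK-induced factor *Etv5* (-0.65) were lower. Among 13 core pluripotency genes, *Lin28a*, an RNA-binding inhibitor of let-7 maturation, was higher by 0.66 (7.69%) and none was lower. Among 28 naive genes, *Gbx2* (1.02) and *Fbxo15* (0.80) were higher (7.14%) and *Manba* was lower (3.57%). *Gbx2* read 4.84 in ESCs, 5.47 at day 2, 6.50 at day 4 and 5.65 in EpiLCs + PRDM14, so its day 4 value was the highest of these 4 arrays. The epiblast programme thus split. Its shares past the threshold were above those of all genes on both sides, while its median was near that of all genes.

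**Figure D2:**
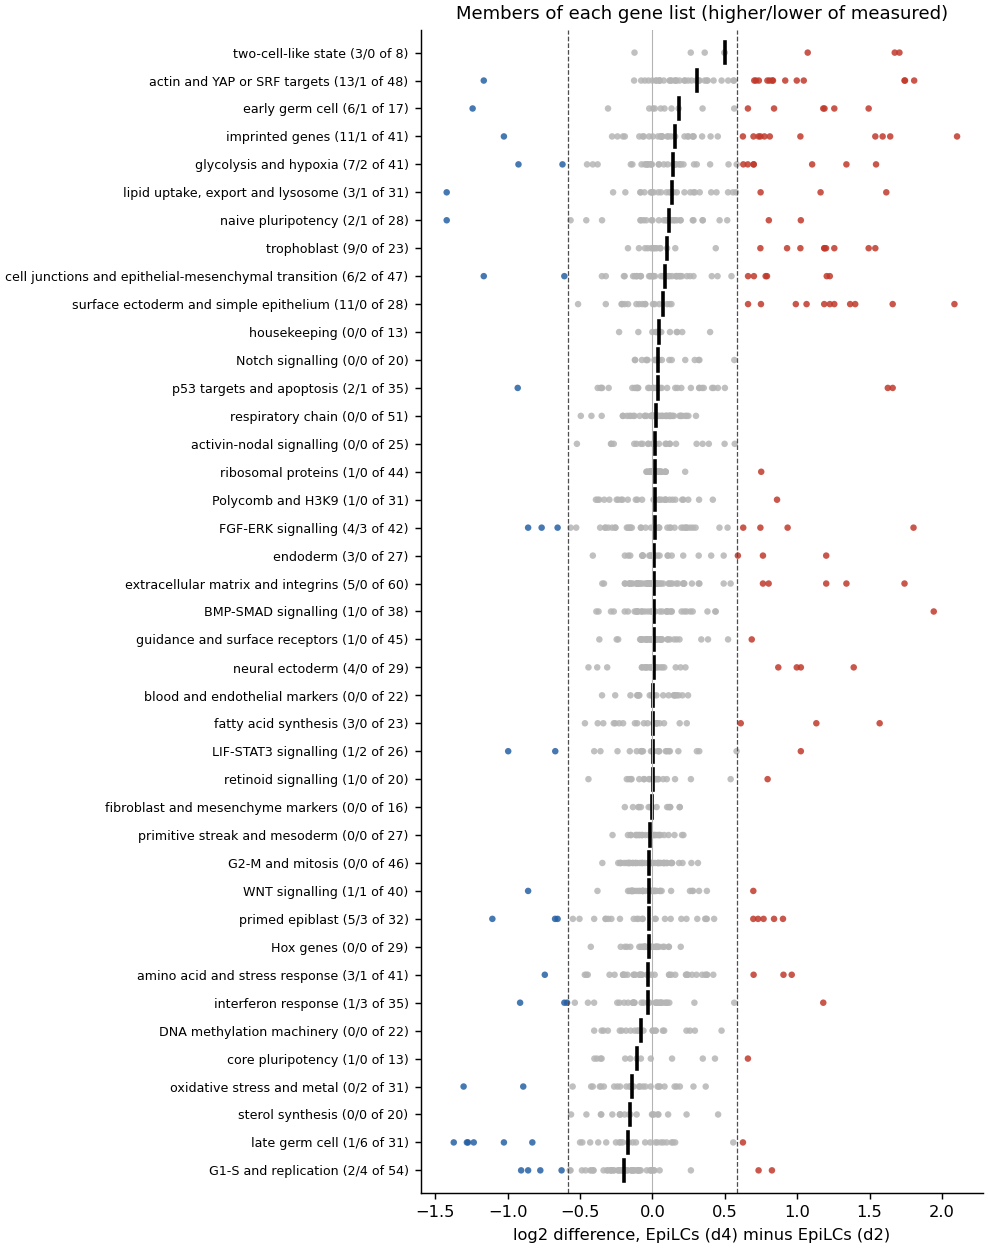
Each point is a gene of a list at its log2 difference, EpiLCs (d4) minus EpiLCs (d2), with the list's median as a black bar and dashed lines at 1.5-fold. Brackets give the members higher and lower of those measured. The list of actin and YAP or SRF targets has 13 of 48 members to the right of the threshold, and the late germ cell list has 6 of 31 to the left.

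Several genes of simple epithelia were higher at day 4. Of 28 measured genes of surface ectoderm and simple epithelium, 11 were higher and none was lower, which is 39.3% of the list beside 2.17% of all genes. The other 17 ranged down to -0.51 and 11 of the 28 were below 0, so the list median was 0.07. Over the 12 members with a mean signal of at least 6 the median was 0.87, and against the KD-labelled day 2 array it was -0.06. The keratin pair *Krt8* and *Krt18*, which together build the intermediate filaments of single-layered epithelia, was among them. *Krt8* read 7.76 in ESCs, 7.49 at day 2, 9.57 at day 4 and 8.19 in EpiLCs + PRDM14, and its other probe set differed by 2.42. *Krt18* read 6.82, 7.53, 8.93 and 7.72 in the same order. *Krt19* went from 5.22 to 6.58 and *Krt7* from 4.87 to 6.05, with 5.40 and 5.55 in EpiLCs + PRDM14. For all 4 keratins the day 4 array was the highest of the 4 arrays. *Perp*, a desmosomal membrane protein, went from 5.42 to 7.08, and *Tfap2c*, the AP-2 factor of trophoblast, surface ectoderm and germ cells, from 5.33 to 6.59. EpiLCs + PRDM14 lay above day 4 for both, at 7.78 and 7.32. The other members were the claudin gene *Cldn4* (1.22), the calcium-binding genes *S100a6* (1.06) and *S100a11* (0.99), the lectin gene *Lgals3* (0.75) and *Esrp1*, a regulator of epithelial splicing (0.66). The epidermal keratin gene *Krt14* differed by -0.21 and the epithelial factor *Grhl2* by -0.32.

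Cell junction genes moved in part with them. Of 47 genes of junctions and the epithelial-mesenchymal transition, 6 were higher (12.8%) and 2 lower (4.26%), with a median of 0.09. Over all genes the shares were 2.17% and 1.13%. *Cldn7*, a tight junction claudin, read 6.54 at day 2 and 7.74 at day 4, with 5.70 in ESCs and 6.33 in EpiLCs + PRDM14. *Dsp*, the desmosomal plaque protein desmoplakin, was higher by 0.79 with other probe sets down to -0.05, *Cgn*, the tight junction adaptor cingulin, by 0.78, and the connexin gene *Gjb5* by 0.70. *Vim*, the intermediate filament of mesenchymal cells, was lower, from 9.99 to 8.82, and its 3 probe sets differed by -1.34 to -1.09. *Vim* had read 10.96 in ESCs and read 8.89 in EpiLCs + PRDM14, so both arrays of the later stage lay below day 2. The cell adhesion gene *Pcdh8* was lower (-0.61). *Cdh1*, the E-cadherin gene, read 11.58 and 11.59.

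Genes of the actin cytoskeleton were also among the higher ones. A list of 48 measured genes held actin, tubulin and other cytoskeletal genes and targets of YAP or SRF. These factors respond to tension and to free actin. Of the list, 13 were higher (27.1%) and 1 was lower (*Vim*, 2.08%), beside 2.17% and 1.13% of all genes. The median was 0.31. Against the KD-labelled day 2 array it was 0.09. Of these 48 genes, 42 differed by more than 0. *Cald1*, an actin-binding regulator of contraction, read 6.28 at day 2 and 8.09 at day 4, with 7.61 in ESCs and 8.34 in EpiLCs + PRDM14. *Myl9*, the myosin regulatory light chain of smooth muscle, read 4.84 and 6.59, with 7.01 in ESCs and 7.12 in EpiLCs + PRDM14. *Ccn2*, a secreted YAP target also known as CTGF, went from 7.86 to 9.61. For *Cald1* and *Myl9* the day 2 array was thus the lowest of the 4. The remaining ones were the calponin gene *Cnn2* (1.04), the tubulin genes *Tubb3* (1.00) and *Tuba1a* (0.73), the cytoplasmic actin gene *Actg1* (0.92), the tropomyosin genes *Tpm1* (0.83) and *Tpm4* (0.79), *Cotl1* (0.83), *Csrp1* (0.81), the focal adhesion gene *Vcl* (0.71) and the filamin gene *Flna* (0.70). *Cald1* and *Cotl1* have other probe sets down to -0.10 and -0.11. *Actb*, the other cytoplasmic actin gene, differed by 0.00, *Acta2* by 0.12 and the YAP target *Ankrd1* by 0.22.

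Of 60 genes of the extracellular matrix and integrins, 5 were higher (8.33%, beside 2.17% of all genes). None was lower, and the median was 0.01. *Lamb1*, a laminin chain of basement membranes, went from 8.32 to 9.52 while ESCs read 6.65, and its 4 probe sets ranged from 0.11 to 1.43. *Nid1*, the laminin-binding nidogen, went from 6.37 to 7.18 and *Sparc*, a collagen-binding protein, from 8.21 to 8.97, with 8.83 and 9.94 in ESCs. *P4ha2*, a collagen prolyl hydroxylase, was higher by 1.34, and *Ccn2* is also in this list. The list of endoderm genes holds *Lamb1* and *Sparc* too, and with *Dab2* (0.59) had 3 of 27 members higher (11.1%). None of 16 fibroblast markers was past the threshold, and only 3 of them had a mean signal of at least 6.

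**Figure D3:**
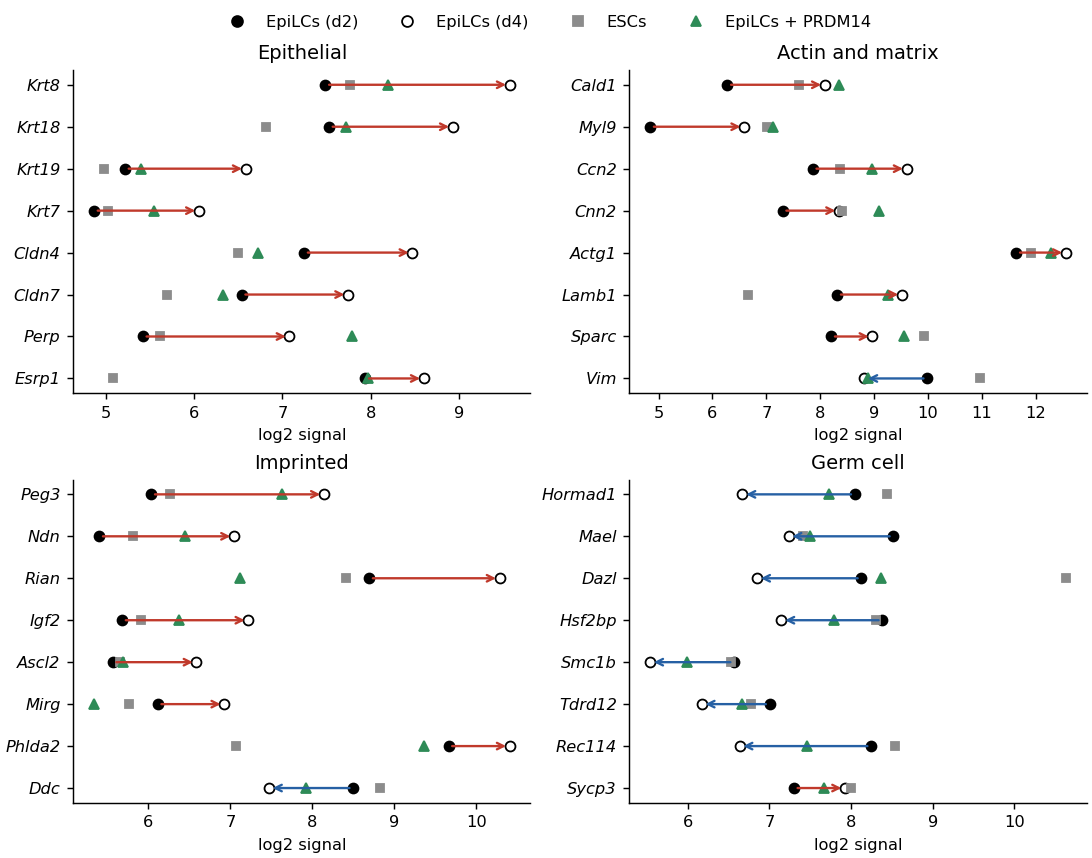
The x axis is the log2 signal and each row is a gene, with an arrow from EpiLCs (d2), black circle, to EpiLCs (d4), open circle, and with ESCs as grey squares and EpiLCs + PRDM14 as green triangles, 1 array each. Keratins and the imprinted genes other than *Ddc* move right to values above the other 3 arrays, while *Hormad1*, *Mael* and *Dazl* move left to values below them.

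Imprinted genes, which are expressed from 1 parental copy, also differed often. Of 41 measured, 11 were higher and 1 lower, with a median of 0.16 and 32 above 0. This is 26.8% higher and 2.44% lower, beside 2.17% and 1.13% of all genes. *Peg3*, a paternally expressed zinc finger gene, read 6.27 in ESCs, 6.04 at day 2, 8.14 at day 4 and 7.63 in EpiLCs + PRDM14. *Ndn*, the paternally expressed necdin gene, went from 5.40 to 7.04, and *Igf2*, the insulin-like growth factor gene, from 5.68 to 7.22, with another *Igf2* probe set at -0.01. The noncoding RNAs of the *Dlk1*-*Dio3* cluster, *Rian*, *Mirg* and *Meg3*, which are expressed from the maternal copy, were higher together. *Rian* read 8.69 at day 2, 10.28 at day 4 and 7.11 in EpiLCs + PRDM14. *Mirg* read 6.11, 6.92 and 5.34, and *Meg3* 7.92, 8.62 and 6.95. All 3 were thus above day 2 in the day 4 array and below it in EpiLCs + PRDM14. The 10 probe sets of *Meg3* ranged from 0.00 to 1.25 and the 4 of *Rian* from 0.09 to 1.59. Maternally expressed genes of chromosome 7 were higher as well, with *Ascl2*, a trophoblast factor, at 1.02, *Phlda2*, a brake on placental growth, at 0.75, and *Cdkn1c*, a cyclin-dependent kinase inhibitor, at 0.73. *Grb10* (0.77, with another probe set at 0.11) and *Sgce* (0.62) were the remaining ones, and *Ddc* was lower (-1.03), although its second probe set differed by 0.07.

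Several of these genes are also active in placenta. In the trophoblast list, 9 of 23 genes were higher (39.1%, beside 2.17% of all genes) and none lower, with a median of 0.10. Besides *Igf2*, *Ascl2*, *Phlda2*, *Tfap2c*, *Krt7* and *Plac1* they were *Cited2*, a transcriptional coregulator (1.20), and the X-linked homeobox genes *Rhox6* (1.49) and *Rhox9* (1.19). *Rhox6* read 5.18 at day 2, 6.67 at day 4 and 6.57 in EpiLCs + PRDM14, and *Rhox9* read 4.96, 6.15 and 6.05. Both homeobox genes also mark germ cells. With *Tfap2c*, *Ifitm1* (1.18), *Nr6a1* and *Lin28a* they are the 6 of 17 early germ cell genes that were higher, against 1 lower, *Rhox5*. These are 35.3% and 5.88% of that list, beside 2.17% and 1.13% of all genes. *Prdm1*, which encodes the germ cell specifier BLIMP1, differed by 0.08, and *Dppa3* by 0.35.

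Among late germ cell genes more members were lower than higher. Of 31 measured genes of meiosis, the piRNA pathway and the gonadal germ line, 6 were lower, 1 was higher and the median was -0.17. Here 19.4% of the list was lower beside 1.13% of all genes. *Hormad1*, a protein of unsynapsed meiotic chromosome axes, read 8.43 in ESCs, 8.04 at day 2, 6.67 at day 4 and 7.73 in EpiLCs + PRDM14. *Mael*, a piRNA pathway gene, read 7.41, 8.52, 7.24 and 7.50 in the same order, and *Dazl*, an RNA-binding protein gene of germ cells, read 10.63, 8.12, 6.85 and 8.36. For all 3 the day 4 array was the lowest of the 4. *Hsf2bp*, a meiotic recombination gene, differed by -1.23 with another probe set at 0.06, *Smc1b*, a meiotic cohesin gene, by -1.03, and *Tdrd12*, a piRNA pathway gene, by -0.83, and all 3 were called lower. *Sycp3*, a component of the synaptonemal complex, was higher by 0.62. *Ddx4*, the germ line helicase, differed by -0.37. *Rec114*, which is needed for meiotic DNA breaks and is not in the list, went from 8.24 to 6.64. Other germ line genes outside the list were also lower and were chosen after their values were seen, namely *Ddx43* (-1.17), *Meioc* (-1.15), *Stk31* (-1.07), *Morc1* (-0.99), *Rnf17* (-0.94), *Stag3* (-0.87) and *Tex14* (-0.76). The 4 probe sets of *Rnf17* ranged from -0.94 to -0.03.

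Promoters of such genes often hold the E-box CACGTG, a palindrome read the same on both strands, which MAX and other basic helix-loop-helix proteins bind. The bases upstream of the start are shown for 3 germ cell genes among the 20 largest decreases in which the 250 bases hold it. They are given 5′ to 3′ on the strand of the gene from RefSeq, build GRCm38.p6, with the E-box in capitals.

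Hormad1, chr3:95559427-95559676, plus strand: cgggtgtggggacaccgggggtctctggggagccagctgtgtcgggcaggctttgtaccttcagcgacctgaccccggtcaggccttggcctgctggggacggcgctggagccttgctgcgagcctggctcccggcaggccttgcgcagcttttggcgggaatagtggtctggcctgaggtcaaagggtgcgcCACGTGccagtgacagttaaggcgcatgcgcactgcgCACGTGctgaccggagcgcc

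Mael, chr1:166238745-166238994, minus strand: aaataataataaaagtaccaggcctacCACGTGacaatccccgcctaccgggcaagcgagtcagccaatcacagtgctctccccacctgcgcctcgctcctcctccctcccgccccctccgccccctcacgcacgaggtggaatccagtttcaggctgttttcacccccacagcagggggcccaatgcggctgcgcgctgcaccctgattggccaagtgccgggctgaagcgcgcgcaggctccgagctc

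Rec114, chr9:58741560-58741809, minus strand: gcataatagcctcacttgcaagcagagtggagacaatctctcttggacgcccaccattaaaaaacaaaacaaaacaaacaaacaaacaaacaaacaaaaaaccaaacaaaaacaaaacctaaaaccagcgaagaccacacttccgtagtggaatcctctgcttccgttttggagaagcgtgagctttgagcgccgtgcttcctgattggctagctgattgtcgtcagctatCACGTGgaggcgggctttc

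*Hormad1* holds 2 E-boxes, which begin 57 and 20 bases before the start, *Rec114* holds 1 that begins 19 bases before it, and *Mael* 1 that begins 223 bases before it. Of the 28 late germ cell genes with a promoter in the RefSeq table, 10 (35.7%) hold the E-box in this window, beside 8.75% of 13605 measured genes with a promoter there and 6.86% of all 27025 genes in the table. Within the list it did not separate the genes by their difference, since 2 of the 6 lower genes hold it and so does *Sycp3*, which was higher. Over all called genes the share was 11.4% of 290 higher and 10.7% of 159 lower ones with a promoter in the table. A match is a description of these letters and says nothing about a bound factor.

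The X chromosome held more of the higher genes than any autosome. Of 596 measured X-linked genes, 44 were higher and 13 lower. This is 7.38% and 2.18%, against 2.00% and 1.10% of 16326 autosomal genes. Among the autosomes the share of higher genes ran from 0.637% on chromosome 17 to 3.72% on chromosome 3. The median difference of X-linked genes was 0.03 and that of autosomal genes -0.01, both near that of all genes. *Xist*, the RNA that coats an inactive X chromosome, read 7.18 at day 2 and 6.94 at day 4, and the Y-linked *Uba1y* read 8.05 and 6.81. Whether the X chromosome changed its state was not tested. Among genes with a mean signal of at least 6 the shares were 12.5% of 288 X-linked and 3.09% of 8279 autosomal genes.

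**Figure D4:**
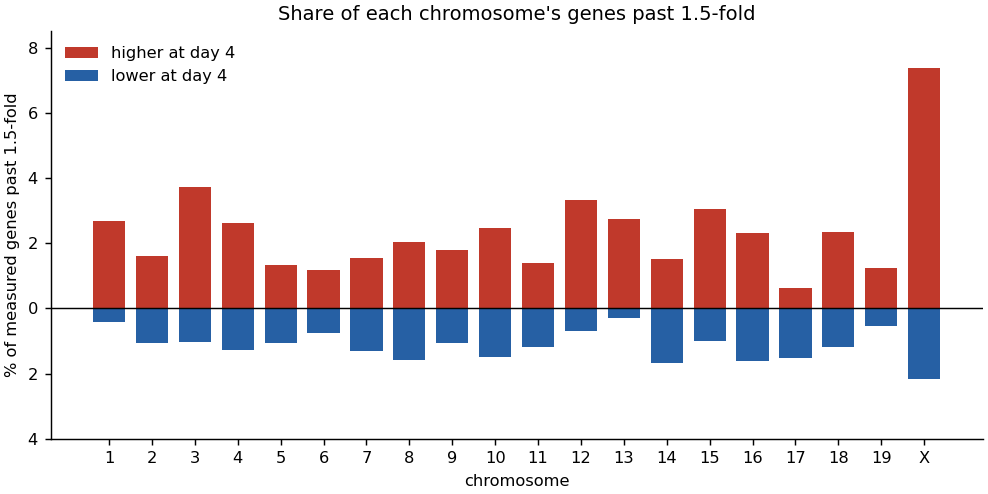
Bars give, for each chromosome on the x axis, the percentage of measured genes past 1.5-fold, higher at day 4 upwards in red and lower at day 4 downwards in blue. The X chromosome stands at 7.38% and 2.18%, and no autosome is above 3.72% for higher genes.

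The X-linked genes that were higher include *Nrk*, *3830417A13Rik*, *Hmgn5*, *Sh3bgrl*, *Pls3* and *Smarca1*, all among the 20 largest increases. Several belong to families that arose by duplication on the X chromosome. *Armcx2*, *Armcx3* and *Armcx4*, which encode armadillo repeat proteins, were higher by 1.70, 1.38 and 0.71, and the related *Arxes2* by 0.78. *Rhox6* and *Rhox9* were higher by 1.49 and 1.19 while *Rhox5* and *Rhox13* of the same homeobox cluster were lower, at -1.24 and -0.77. *Mbnl3*, a splicing regulator of the muscleblind family, was higher by 1.60 with another probe set at 0.14, and *Lamp2*, a lysosomal membrane protein gene, by 1.16. The 13 lower genes included *Xlr5c*, *Xlr4b* and *Xlr5a* (-1.15) of a testis-expressed family, *Dusp9*, an ERK phosphatase (-1.13), and *Fthl17e*, a ferritin-like gene (-0.94).

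Of 8 measured genes of the two-cell-like state, a rare state of ESC cultures that resembles the early cleavage embryo, 3 were higher and none lower. This is 37.5% higher, beside 2.17% of all genes, and the list median was 0.50. Against the KD-labelled day 2 array the median was -0.12 and *Tcstv1* differed by -0.71, so the direction depends on the reference array. *Usp17la*, a deubiquitinase gene, read 7.92 in ESCs, 7.92 at day 2, 9.63 at day 4 and 10.25 in EpiLCs + PRDM14. *Arg2*, the mitochondrial arginase, read 4.20, 4.86, 6.53 and 7.20 in this order, and *Tcstv1* 4.99, 5.54, 6.61 and 7.93. In each case both later arrays lay above day 2. *Zscan4a*, a zinc finger gene of the same state that is not in the list, went from 9.06 to 10.79 and was chosen after its value was seen. *Usp17la*, *Tcstv1* and *Zscan4a* have close copies, and the array may not separate them.

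Glucose transport and signalling genes changed in part. Of 41 genes of glycolysis and the response to hypoxia, 7 were higher (17.1%) and 2 lower (4.88%), with a median of 0.14. Over all genes the shares were 2.17% and 1.13%. The glucose transporter genes *Slc2a1* and *Slc2a3* went from 9.57 to 11.11 and from 9.89 to 10.99, and the 4 probe sets of *Slc2a3* ranged from 0.22 to 1.20. *Slc2a1* read 9.89 in EpiLCs + PRDM14 and 8.91 in ESCs, so its day 4 value was the highest of the 4 arrays, and its other probe set differed by 1.56. Also higher were the glycolytic enzyme gene *Tpi1* (0.70) and the hypoxia-inducible genes *P4ha2*, *Ddit4* (0.70), *Ndrg1* (0.66) and *Bnip3* (0.63). *Car9* (-0.62), a hypoxia-inducible carbonic anhydrase, and *Mxi1* (-0.93) were lower, and *Vegfa* differed by -0.01. Of 31 genes of lipid uptake, export and the lysosome, 3 were higher (9.68%) and 1 lower (3.23%), with a median of 0.14. *Apoe*, an apolipoprotein gene, went from 7.22 to 8.83, *Lamp2* and the lysosomal hexosaminidase gene *Hexa* (0.75) were also higher, and *Manba* was the lower one. Of 23 genes of fatty acid synthesis and binding, 3 were higher and none lower, with a median of 0.01. They were the fatty acid-binding protein genes *Fabp3*, from 7.39 to 8.96, and *Fabp5*, from 9.58 to 10.71, and *Acsl4*, an acyl-CoA synthetase gene (0.61, with another probe set at 0.07). No gene of sterol synthesis was past the threshold among 20, nor any respiratory chain subunit among 51.

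Among 38 genes of BMP-SMAD signalling, *Id2*, an inhibitor of helix-loop-helix factors, was the 1 called (2.63%, near the 2.17% of all genes). It read 4.12 in ESCs, 5.22 at day 2, 7.16 at day 4 and 6.59 in EpiLCs + PRDM14, and 1 of its 3 probe sets differed by 0.18. *Id1* and *Id3*, its relatives, differed by 0.07 and 0.43. Of 42 FGF-ERK genes, 4 were higher (9.52%) and 3 lower (7.14%), beside 2.17% and 1.13% of all genes. *Fgfbp1* read 6.37 and 8.17 and the receptor gene *Fgfr2* 7.03 and 7.97, with another *Fgfr2* probe set at 0.07, while the cyclin gene *Ccnd1* went from 10.29 to 9.43, *Phlda1* differed by -0.77 and *Etv5* by -0.65. The ERK targets *Dusp6* and *Spry2* differed by 0.20 and 0.26. Of 26 LIF-STAT3 genes, *Gbx2* was higher (3.85%) and 2 were lower (7.69%), beside 2.17% and 1.13% of all genes. The lower ones were the receptor gene *Lifr*, from 7.66 to 6.67 with another probe set at -0.14, and the kinase gene *Sgk1*, from 9.37 to 8.70. *Socs2* of this list differed by 0.58. Of 25 activin-nodal genes none was called, with *Lefty2* at -0.52 and *Nodal* at -0.28. Of 22 genes of DNA methylation none was called either, with *Dnmt3a* at -0.40, *Dnmt3l* at -0.35 and *Uhrf1* at -0.34.

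Most genes of the G1-S transition differed by small amounts below 0. Of 54 measured, 4 were lower (7.41%) and 2 higher (3.70%), beside 1.13% and 2.17% of all genes. In this list 48 differed by less than 0, with a median of -0.19 beside -0.01 over all genes. The lower ones were the thymidine kinase gene *Tk1* (8.99 to 8.08), *Ccnd1*, the cyclin gene *Ccne1* (9.81 to 9.04) and *Ung*, a uracil glycosylase (9.77 to 9.14). The higher ones were both inhibitors of cyclin-dependent kinases, *Cdkn1b* (5.86 to 6.68, with another probe set at -0.15) and *Cdkn1c* (7.59 to 8.33). None of 46 genes of G2-M and mitosis was called, and their median was -0.02. The proliferation marker *Mki67* differed by 0.21.

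Of 31 genes of oxidative stress and metal handling, 2 were lower (6.45%, beside 1.13% of all genes). They were *Nqo1*, from 8.65 to 7.35, and *Cbr3*, a carbonyl reductase, from 10.01 to 9.12. The heme oxygenase gene *Hmox1* differed by -0.01. Of 35 interferon response genes, *Ifi35* (-0.91), *Irf1* (-0.61) and *Trim25* (-0.59) were lower and *Ifitm1* was higher. This is 8.57% lower and 2.86% higher, beside 1.13% and 2.17% of all genes. Genes of antigen processing outside this list, *Psmb10* (-1.07), *Tapbp* (-1.01) and *Psme2* (-0.98), were lower too and were chosen after their values were seen. Of 29 neural ectoderm genes, 4 were higher (13.8%) and none was lower. The 4 were *Irx3* (4.73 to 6.12), *Gbx2*, *Tubb3* and *Sox11* (7.06 to 7.93, with another probe set at -0.16). Of 27 mesoderm genes and 29 *Hox* genes none was called. Only 8 of these mesoderm and 6 of these *Hox* genes had a mean signal of at least 6, and dimmer genes were called less often. The remaining lists held few called genes. *Phc2*, a Polycomb subunit, was higher by 0.86 among 31 genes of Polycomb and H3K9 methylation, *Crabp2*, a retinoic acid-binding protein, by 0.80 among 20 of retinoid signalling, *Robo1*, a guidance receptor, by 0.69 among 45 surface receptors, and *Rpl14* by 0.75 among 44 ribosomal proteins. Of 35 p53 targets and apoptosis genes, *Perp* and *Igfbp3* (1.63) were higher (5.71%) and *Sesn1* (-0.93) was lower (2.86%). Of 41 genes of the amino acid and stress response, *Slc38a1*, a glutamine transporter (0.96), *Cebpb* (0.90, with another probe set at 0.01) and *Ddit4* were higher. *Cth* (-0.74), an enzyme of cysteine synthesis, was lower. These are 7.32% and 2.44% of the list. No member was called among 20 Notch, 13 housekeeping or 22 blood and endothelial genes, and only 5 of the last had a mean signal of at least 6.

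The arrays labelled *Tet1*/*Tet2* KD give a pair, EpiLCs + PRDM14 minus EpiLCs (d2), that shares no array with the comparison above. It spans the same further days and change of medium but also the induction of PRDM14 in cells with the knockdown, so it is no replicate. In this pair 364 genes were higher (2.13% of 17097) and 430 lower (2.52%). Of the 371 genes higher at day 4, 145 (39.1%) were past 1.5-fold higher there too and 13 (3.50%) were lower. Those 145 are 39.8% of the genes higher in the KD pair. Of the 194 genes lower at day 4, 102 (52.6%) were past 1.5-fold lower there too and 2 (1.03%) were higher, and the 102 are 23.7% of the genes lower in that pair. The sign was shared by 307 of the 371 (82.7%) and by 185 of the 194 (95.4%), beside 10132 of all 17097 genes (59.3%).

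**Figure D5:**
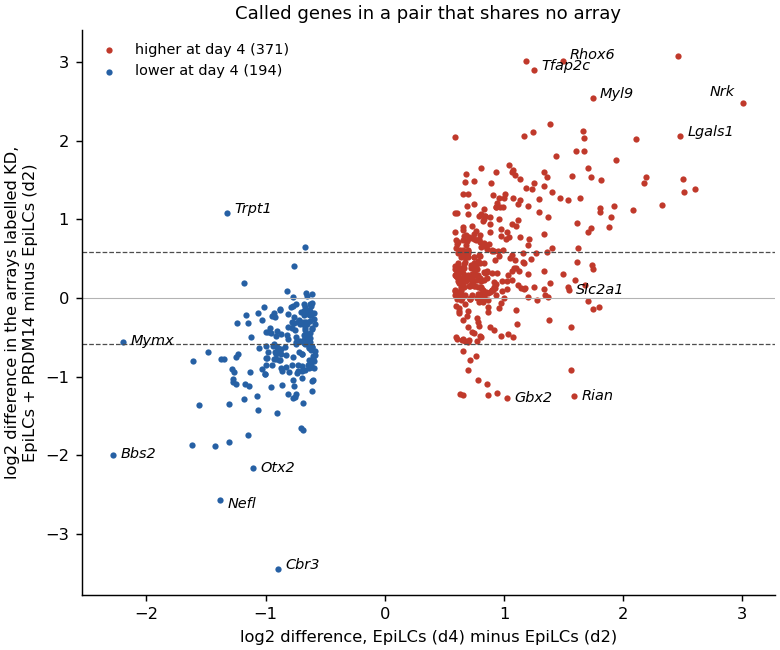
Each point is 1 of the 565 genes called between EpiLCs (d4) and EpiLCs (d2), at that log2 difference on the x axis and at its log2 difference in the arrays labelled KD, EpiLCs + PRDM14 minus EpiLCs (d2), on the y axis, with dashed lines at 1.5-fold. Of the red genes 145 lie above the upper line and of the blue genes 102 lie below the lower one, while *Rian* and *Gbx2* lie on the other side.

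*Nrk* differed by 2.49 in the KD pair, *Lgals1* by 2.06, *Peg3* by 2.02, *Myl9* by 2.55, *Krt8* by 1.12, *Krt18* by 1.35, *Id2* by 1.75, *Otx2* by -2.17, *Dazl* by -1.07 and *Hormad1* by -0.78. In the KD pair 12 of 48 genes of the actin and YAP or SRF list were higher and 1 lower, with a median of 0.29. Of 28 surface ectoderm and simple epithelium genes, 9 were higher and 2 lower there, with a median of 0.31. Other lists differed from the comparison without PRDM14. Of 32 primed epiblast genes none was higher and 14 were lower (median -0.55), of 41 imprinted genes 7 were higher and 4 lower (-0.03), of 41 glycolysis and hypoxia genes 4 and 8 (-0.14), and of 47 junction genes 4 and 7 (-0.02). Other genes went apart. *Rian* differed by 1.59 at day 4 and by -1.25 in the KD pair, *Gbx2* by 1.02 and -1.27, *Sox11* 0.87 and -1.23, *Bnip3* 0.63 and -1.23, and *Trpt1* -1.32 and 1.08. *Slc2a1* differed by 0.10 and *Smarca1* by -0.12 in that pair. On the X chromosome, 4.87% of genes were higher in the KD pair, against 2.05% of autosomal genes. The 2 pairs differ by the knockdown and by PRDM14, whose parts in these differences cannot be told apart.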

How the data were processed

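Total RNA of 6 cultures was hybridized by the authors to Affymetrix mouse array strips, 1 array for each culture, and the deposited values are log2 signals from robust multi-array average (RMA). Per the submitters' processing notes the software was the Affymetrix Expression Console (version not given in the sources used here). RMA sets all arrays of a run to one distribution, so a change shared by most genes would not appear. The 4 columns of ESCs and scramble cultures have medians of 5.28 to 5.29 and the columns labelled *Tet1*/*Tet2* KD have medians of 5.07, so levels were compared across these sets only after quantile normalization.

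Of 45141 probe sets, 104 controls were left out. The platform annotation gives 1 symbol for 28898 probe sets, several for 551 and none for 15588. Of the 17097 genes, 16935 were placed on a chromosome through RefSeq (GRCm38.p6). Groups came from the sample labels. Day 4 minus day 2 was called at 1.5-fold without a test, with no filter on dim signals. Named genes are the 20 largest increases and decreases by brightest probe set, list members past 1.5-fold or with the largest differences, and defining factors; others are marked as chosen after their values were seen. The 41 lists hold 1332 symbols, and 20 older symbols were updated through RefSeq synonyms. The genes and lists were chosen with earlier results of these data known. Calls and normalization were tested on simulated data. Python 3.11.15, numpy 2.4.6, pandas 2.3.3, scipy 1.17.1 and matplotlib 3.10.9 were used.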

Additional observations from a re-analysis of the deposited data

How the results depend on the processing

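With 1 array a side no call has a replicate check, and the depth of an array is not a count. No paired analysis was possible because each group has 1 array. At 2-fold, 173 probe sets and 122 genes were higher and 56 and 40 lower. With the day 2 array labelled *Tet1*/*Tet2* KD as the reference after quantile normalization, 1227 probe sets and 718 genes were higher and 1119 and 765 lower. This reference also differs by the knockdown. A filter at a signal of 6, quantile normalization again, a common median, omitting probe sets that may cross-hybridize, adding unnamed probe sets, and the median over probe sets or any probe set for a gene kept all counts within 1.5 times. Of 146 named genes, none changed sign under the median over probe sets, and 23 fell below 1.5-fold (*Acsl4*, *Cald1*, *Cdkn1b*, *Cebpb*, *Cotl1*, *Dab2*, *Ddc*, *Dsp*, *Enpp3*, *Fgfr2*, *Grb10*, *Id2*, *Lamp2*, *Lifr*, *Lin28a*, *Meg3*, *Nid1*, *Nr6a1*, *Phf20l1*, *Sgce*, *Slc38a1*, *Sox11* and *Vcl*). Against the KD-labelled day 2 array 28 fell below it and 9 changed sign, namely *Cald1* (-0.18), *Cotl1* (-0.28), *Fbxo15* (-0.10), *Gm5039* (-0.60), *Igf2* (-0.21), *Irf1* (0.049), *S100a6* (-1.74), *Sparc* (-0.47) and *Tcstv1* (-0.71), and the cause was not tested. Of the 41 list medians, 13 left their 95% order-statistic interval under this reference and 2 under the filter at a signal of 6. This interval is drawn over the genes of a list, which are no replicates, and it can be wide. The surface ectoderm and simple epithelium median moved from 0.07 to 0.87 under the filter and stayed inside. The two-cell-like median moved from 0.50 to -0.12 under this reference and stayed inside too. Staying inside thus does not show that a median was stable. The share of X-linked genes higher at day 4, examined after the data were seen, was above that of autosomal genes under each of 6 alternatives, from 3.52% against 0.619% at 2-fold to 12.5% against 3.09% at a signal of at least 6.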
